A study of Drosophila melanogaster with 15 samples.

Results

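The genes elav, fne, Rbp9, futsch, Appl and nrv3 are widely used as marks of Drosophila neurons. Every probe set (a group of short array probes read out as 1 value) whose platform annotation gives one of these symbols alone was taken, which gave 9 probe sets for 6 of the 11981 genes with a single symbol, out of 18769 probe sets other than controls. The values are from 15 Affymetrix arrays of RNA from fluorescence-sorted larval brain cells, in 5 groups of 3 arrays. The sorted pacemaker cells were ventral lateral neurons (LNvs), which make the neuropeptide Pdf and number about 8 in a larval brain, per the labels. All larvae were at the third instar (L3) and lived at 25 °C under 12 h light and 12 h dark. Zeitgeber time (ZT) counts hours from lights-on.

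Wild-type LNvs at ZT3 and at ZT15 came from yw larvae with Pdf-Gal4 and UAS-GFP. The per0 LNvs at ZT15 came from yw, per0 larvae with Pdf-RFP, and the cyc0 LNvs at ZT15 from yw, cyc0 larvae with Pdf-RFP. The 5th group was labelled through elav-Gal4 with UAS-GFP at ZT15 and is called elav neurons here. Each mutant differs from wild type in its reporter as well, and the part of the reporter cannot be told apart from that of the mutation. The gate took the brightest 0.01% of cells, about 1000 cells, and the protocol names RFP for every array although 3 groups carried GFP. The titles call the arrays biological replicates. They do not say how many brains went into each.

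The elav gene encodes an RNA-binding protein of the ELAV/Hu family that is found in the nuclei of neurons and directs alternative splicing and the choice of 3′ ends of neuronal transcripts. Its paralogs fne and Rbp9 encode related proteins of the same family, and Rbp9 is also known from the female germ line. The futsch gene encodes a large microtubule-associated protein, related to mammalian MAP1B, that lies in axons and dendrites. Appl encodes the fly relative of the amyloid precursor protein, a membrane protein of neurons. The product of nrv3 is a beta subunit of the sodium pump, the Na+/K+ ATPase. In the RefSeq gene table (assembly Release 6 plus ISO1 MT), elav, fne, futsch and Appl lie on chromosome X, and Rbp9 and nrv3 on chromosome arm 2L. There elav and Appl are near neighbours, with 3 other listed genes between them.

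Levels are log2 values made by the authors with GCRMA, a method that subtracts a background modelled from probe sequence and normalizes arrays. A log2 difference of 1 is a doubling. Testing was limited to the 5829 probe sets that reached log2 4 on 3 or more of the 15 arrays, among them 6 of the 9 named here, 1 for each gene. The limma linear model was fitted to all 15 arrays, and p-values were adjusted by Benjamini-Hochberg over all 5829, with a threshold of 0.05. Errors after a mean are SD over 3 arrays. Levels of different genes are not compared with each other, since probes differ in affinity.

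Between 3520 and 5436 probe sets reached log2 4 on an array. The 2 arrays least like the others of their group were cyc0 replicate 3 (mean correlation 0.785) and wild-type ZT15 replicate 1 (0.786), against 0.807 to 0.913 for the other 13. The label of the sorted cells was checked with Pdf, which lay between 12.37 and 13.07 on the 12 LNv arrays and between 3.06 and 4.49 on the elav neuron arrays. The tissue label of the elav neuron arrays also reads LNvs, and their Pdf values go against that label. As a Pdf promoter drove the LNv reporters, this is a check and no finding. Of 7 neuron markers on the array (elav, nSyb, brp, para, cac, fne and Appl), 4 to 6 reached log2 4 on at least 2 arrays of each group, while para did so in no group.

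**Figure D1:**
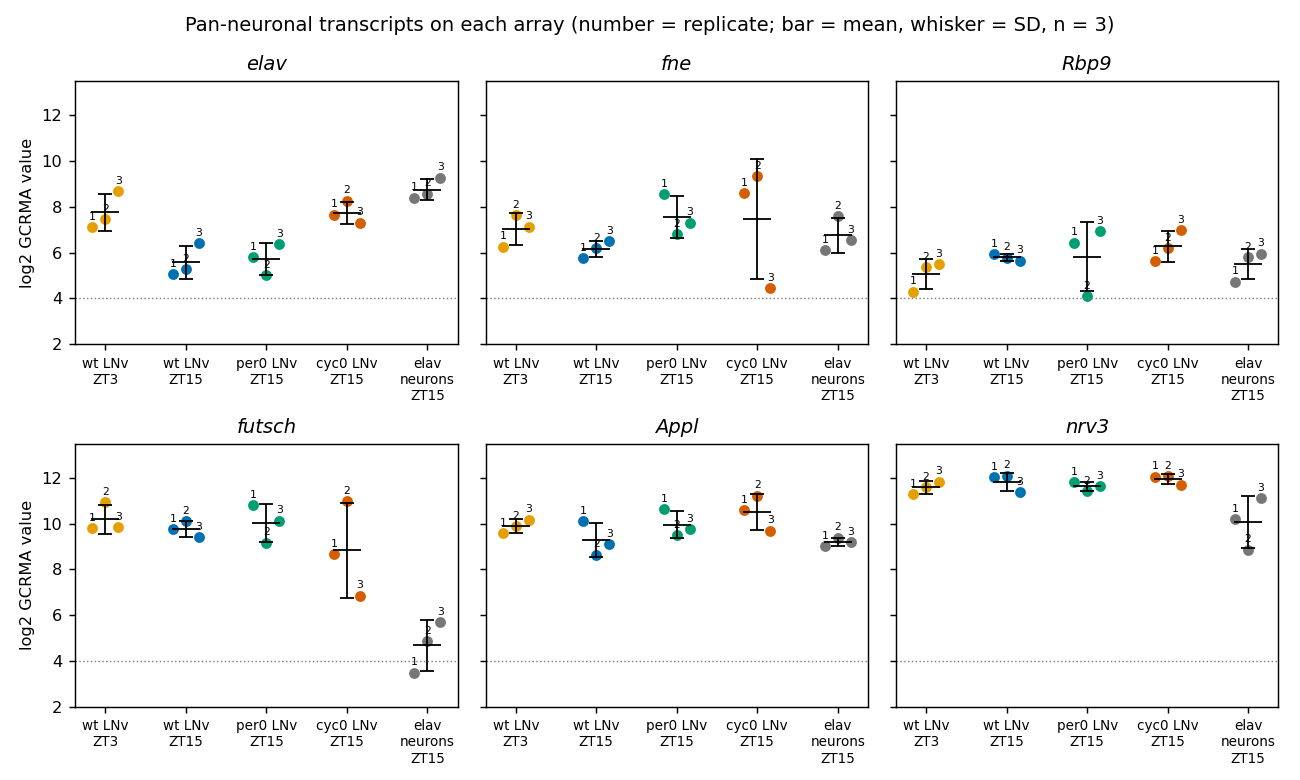
The log2 GCRMA values of the 6 genes on each of the 15 arrays, by group on the x axis, for the brightest probe set of each gene. Points are arrays with their replicate number, bars are means, whiskers are SD (n = 3), and the dotted line marks log2 4. The futsch points of elav neurons lie between 3.49 and 5.69, below all 12 LNv points, and elav is low in wild-type LNvs at ZT15 and in per0 LNvs.

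The elav transcript was highest in elav neurons and lowest in wild-type and per0 LNvs at ZT15. On the elav neuron arrays it stood at 8.40, 8.58 and 9.28 (mean 8.75 ± 0.46). As elav-Gal4 labelled these cells, elav is tied to how they were chosen. The wild-type LNvs at ZT15 gave 5.05, 5.28 and 6.40 (mean 5.58 ± 0.72), and the per0 LNvs gave 5.80, 5.00 and 6.38 (mean 5.73 ± 0.70). In wild-type LNvs at ZT3 the values were 7.13, 7.47 and 8.67 (mean 7.76 ± 0.81), and in cyc0 LNvs they were 7.66, 8.27 and 7.31 (mean 7.74 ± 0.49). The arrays of wild-type LNvs at ZT15 and per0 LNvs therefore shared 1 range, those of wild-type LNvs at ZT3 and cyc0 LNvs shared a higher one, and the 2 ranges did not overlap.

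Against elav neurons, elav was lower in wild-type LNvs at ZT15 by a log2 difference of -3.18 (SE 0.58, adjusted p = 0.00191 by limma), a 9.03-fold difference. In per0 LNvs the difference was -3.03 (SE 0.58, adjusted p = 0.00306), or 8.14-fold. In wild-type LNvs at ZT3 the means of 7.76 and 8.75 overlapped in their arrays (95% confidence interval of the difference -2.22 to 0.23, adjusted p = 0.304). In cyc0 LNvs the arrays did not overlap, and the difference was -1.01 (95% confidence interval -2.24 to 0.22, adjusted p = 0.366). These 4 comparisons share the elav neuron arrays. Wild-type LNvs at ZT3 and elav neurons also differ in the hour of dissection.

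The paralog fne did not pass the test against elav neurons in any LNv group. Its values were 6.26, 7.64 and 7.13 in wild-type LNvs at ZT3, 5.76, 6.20 and 6.50 at ZT15, and 8.57, 6.79 and 7.31 in per0. The cyc0 arrays gave 8.61, 9.33 and 4.44, the widest spread of any group for this gene (SD 2.64), with replicate 3 lowest of all 15 arrays. Elav neurons gave 6.09, 7.60 and 6.56, within the range of the LNv arrays. Differences from elav neurons ran from -0.60 in wild-type LNvs at ZT15 (95% confidence interval -2.56 to 1.37, adjusted p = 0.732) to 0.81 in per0 (-1.15 to 2.77, adjusted p = 0.638).

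Rbp9 did not pass either. Its brighter probe set gave 4.28, 5.35 and 5.49 in wild-type LNvs at ZT3, 5.94, 5.78 and 5.65 at ZT15, 6.44, 4.08 and 6.95 in per0, and 5.63, 6.19 and 6.97 in cyc0. Elav neurons gave 4.73, 5.79 and 5.96, which overlapped with every LNv group. The differences from elav neurons lay between -0.45 for wild-type LNvs at ZT3 (95% confidence interval -1.88 to 0.98, adjusted p = 0.735) and 0.77 for cyc0 (adjusted p = 0.588). Intervals of this width leave room for a change of several fold in either gene. The 2nd Rbp9 probe set stayed below log2 4 on all 15 arrays, between 2.32 and 3.57, and was not tested.

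The futsch transcript was higher in each LNv group than in elav neurons. It stood at 9.82, 10.94 and 9.84 in wild-type LNvs at ZT3 and at 9.78, 10.13 and 9.41 at ZT15. The per0 arrays gave 10.82, 9.18 and 10.14. The cyc0 arrays gave 8.66, 11.01 and 6.86, with replicate 3 lowest among the 12 LNv arrays. Elav neurons gave 3.49, 4.86 and 5.69, so that no LNv array reached down to them. As 1 elav neuron array lay below log2 4, near background, the folds below are imprecise.

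The log2 difference of futsch from elav neurons was 5.52 in wild-type LNvs at ZT3 (SE 0.83, adjusted p = 0.000478) and 5.09 at ZT15 (SE 0.83, adjusted p = 0.000954). It was 5.37 in per0 (SE 0.83, adjusted p = 0.000604) and 4.16 in cyc0 (SE 0.83, adjusted p = 0.00582). The corresponding folds were 45.8, 34.1, 41.2 and 17.9. Without cyc0 replicate 3 the cyc0 difference was 5.15 (adjusted p = 0.000948), and without cyc0 replicate 2 it was 3.08 (adjusted p = 0.0303). With no filter on low values, or with the 6 arrays of these 2 groups alone, the cyc0 difference did not pass (adjusted p = 0.0552 and 0.0754). The other 2 probe sets of futsch lay between 2.38 and 3.89 and between 2.33 and 2.82 over all 15 arrays. Neither was tested. Both stayed below log2 4 on all 15 arrays, near background, so they cannot show whether the difference holds. The group means of the brighter ran from 2.49 to 3.31 in LNvs, with 2.63 in elav neurons.

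**Figure D2:**
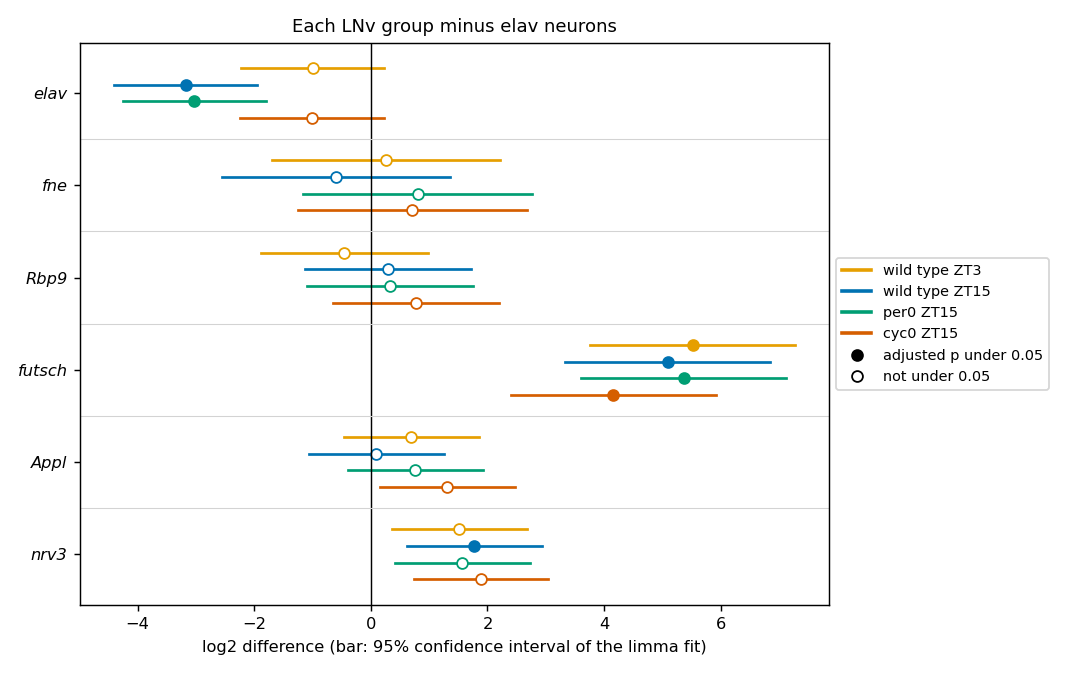
The log2 difference of each LNv group from elav neurons (x axis) for the 6 genes (y axis), from the limma fit. Points are estimates, bars are 95% confidence intervals, and filled points passed an adjusted p of 0.05. All 4 futsch points lie between 4.16 and 5.52, and the elav points of wild-type ZT15 and per0 LNvs lie at -3.18 and -3.03.

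Appl was well above log2 4 on all arrays, from 8.65 to 11.23. Wild-type LNvs gave 9.59, 9.90 and 10.19 at ZT3 and 10.10, 8.65 and 9.12 at ZT15. The per0 arrays gave 10.63, 9.49 and 9.76, and the cyc0 arrays 10.60, 11.23 and 9.70. Elav neurons gave 9.02, 9.40 and 9.18, so that the 3 LNv groups other than wild type at ZT15 lay above them with no overlap. Of all probe sets tested, 30.3%, 30.3% and 23.3% had no overlap in either direction for wild type at ZT3, per0 and cyc0. None of the Appl differences passed: the largest was 1.31 in cyc0 (95% confidence interval 0.15 to 2.47, adjusted p = 0.184) and the smallest 0.09 in wild-type LNvs at ZT15 (-1.07 to 1.25, adjusted p = 0.945).

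All 12 LNv arrays gave higher nrv3 than the 3 elav neuron arrays. Wild-type LNvs stood at 11.30, 11.61 and 11.84 at ZT3 and at 12.04, 12.10 and 11.39 at ZT15. The per0 arrays gave 11.83, 11.44 and 11.64, and the cyc0 arrays 12.06, 12.10 and 11.72. Elav neurons gave 10.20, 8.87 and 11.13, with replicate 3 close below the lowest LNv array. The difference passed for wild-type LNvs at ZT15, at 1.78 (SE 0.55, adjusted p = 0.041, 3.43-fold). It did not pass for wild-type LNvs at ZT3 (1.52, adjusted p = 0.0833), per0 (1.57, adjusted p = 0.0787) or cyc0 (1.89, adjusted p = 0.0516).

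The nrv3 call at ZT15 was unsteady. It was lost with 9 of the 15 arrays left out in turn. Leaving out elav replicate 2, the lowest array, gave 1.18 (adjusted p = 0.189). Leaving out elav replicate 3 gave 2.31 (adjusted p = 0.0138), and nrv3 then passed in the other LNv groups as well (2.05, 2.10 and 2.42 in wild-type ZT3, per0 and cyc0, adjusted p = 0.0272, 0.0262 and 0.0152). Quantile normalization gave 1.07 (adjusted p = 0.221) and centring on array medians 1.85 (adjusted p = 0.0501). The fit with the replicate number as a block gave adjusted p = 0.0543.

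Counted over the 6 genes, 3 passed between wild-type LNvs at ZT15 and elav neurons (futsch and nrv3 higher, elav lower), where 12.5% of all probe sets tested passed and 30.6% had no overlap. For per0 LNvs 2 passed, where 10.2% of all did and 30.3% had no overlap. For wild-type LNvs at ZT3 and for cyc0 LNvs futsch alone passed, where 11.2% and 5.61% of all did and 30.3% and 23.3% had no overlap. Of the 6 genes, 3, 4, 3 and 4 had no overlap for wild type at ZT15, per0, wild type at ZT3 and cyc0. The median difference over the 6 genes was 0.20, 0.79, 0.48 and 1.04 for wild type at ZT15, per0, wild type at ZT3 and cyc0, beside 0.11, 0.32, 0.16 and 0.28 over all probe sets tested. Each median of the 6 genes thus lay above that of all probe sets tested. This depended on the filter for wild type at ZT15. With the stricter filter, at log2 5, the median of all probe sets was 0.26 there, above the 0.20 of the 6 genes. It was 0.45, 0.35 and 0.38 for per0, wild type at ZT3 and cyc0, below those of the 6 genes. In per0 and cyc0 LNvs elav, which is tied to how elav neurons were chosen, was the only member with a lower mean than in elav neurons. In wild-type LNvs fne was lower as well at ZT15, and Rbp9 at ZT3. Most of these differences did not pass, and with 6 members a count is coarse. In bulk RNA, fewer cells that carry a transcript and less of it per cell cannot be told apart.

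Markers of other cells differed between the same groups. Of 6 neuroblast (neural stem cell) markers, 4 reached log2 4 on at least 2 elav neuron arrays and at most 1 did so in any LNv group. The mean of that list ran from 4.62 to 6.45 on elav neuron arrays and from 2.54 to 3.91 on LNv arrays, and its sum from 27.7 to 38.7 and from 15.3 to 23.5. The 4 immature neuron markers on the array (pros, chinmo, Syp and nerfin-1) averaged 8.44 to 8.64 on elav neuron arrays and 3.79 to 6.53 on LNv arrays. The 6 cell cycle genes averaged 5.00 to 5.77 and 2.84 to 4.55. The part of these cells in the results for elav, futsch and nrv3 was not tested.

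**Figure D3:**
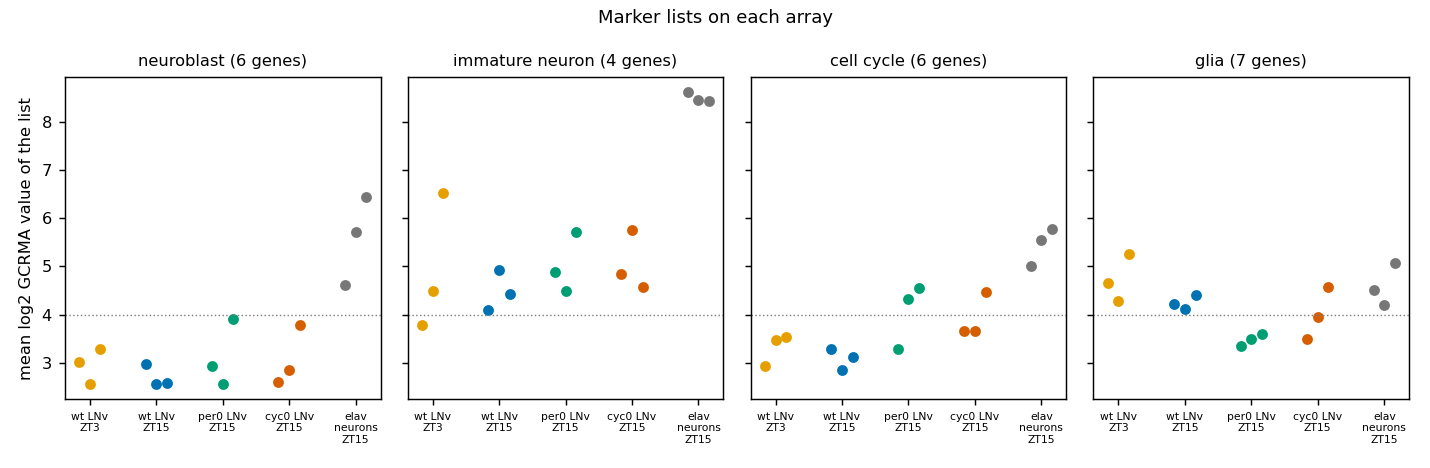
The mean log2 GCRMA value of 4 marker lists on each array (y axis), by group (x axis). Points are arrays, and the dotted line marks log2 4. The neuroblast, immature neuron and cell cycle lists lie higher on the elav neuron arrays than on any LNv array, while the glia list overlaps between elav neurons and wild-type LNvs.

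The comparison of ZT15 with ZT3 asked whether these transcripts differ by time of day in wild-type LNvs. None of the 6 genes passed, where 0.789% of all probe sets did. The largest difference was that of elav, at -2.18 (SE 0.58, 95% confidence interval -3.40 to -0.95, adjusted p = 0.121), 4.53-fold lower at ZT15 with no overlap of the arrays. Of all probe sets tested, 14.8% had no overlap in this comparison. Rbp9 was the other gene without overlap, at 0.75 (95% confidence interval -0.68 to 2.18, adjusted p = 0.856). The differences of nrv3, futsch, Appl and fne were 0.26, -0.43, -0.60 and -0.86, with adjusted p of 0.861 or more.

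The mean of 7 glia markers overlapped between the times, at 4.29 to 5.25 at ZT3 and 4.11 to 4.41 at ZT15. Its members did not all move alike. The glial transcription factor gene repo was higher at ZT3, at 5.87, 3.58 and 7.37 against 2.83 to 3.18. So was nrv2, at 6.23, 6.68 and 6.15 against 5.99, 4.19 and 5.99. The loco values were lower on every ZT3 array, at 4.76 on each against 5.84, 4.93 and 4.95. The same 4.76 was read on per0 replicate 1, cyc0 replicate 1 and elav replicate 2. It may thus be the background of this probe set, and the loco values do not show a change in the other direction. Gs2, moody, alrm and gcm overlapped between the times. The immature neuron list averaged 6.53 on ZT3 replicate 3, the array with the most elav and repo of its group. Without that array the elav difference between the times was -1.72 (adjusted p = 0.403). The part of glia or immature neurons in the elav difference was not tested.

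The mutants ask whether the transcripts follow the state of the clock. The per gene encodes a repressor of the CLK/CYC activator and cyc encodes a partner in that activator. In cyc0 LNvs elav was 2.17 above wild type (SE 0.58, 95% confidence interval 0.94 to 3.39), 4.49-fold, with no overlap of arrays, and adjusted p = 0.0524 just missed the threshold. The background of probe sets without overlap was 23.7% here and that of probe sets passing the test 2.9%. In per0 LNvs elav differed by 0.15 from wild type (95% confidence interval -1.08 to 1.38, adjusted p = 0.921). The cyc0 LNvs stood 2.02 above the per0 LNvs (SE 0.58, adjusted p = 0.177), again without overlap, which 14.4% of probe sets showed. As both mutants carry Pdf-RFP, the reporter does not differ in that last comparison.

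Markers of other cells differed between the cyc0 and wild-type arrays at ZT15 as well. The mean of the 6 cell cycle genes was 3.66 to 4.48 in cyc0 and 2.84 to 3.29 in wild type, without overlap, and its sum 21.9 to 26.9 and 17.1 to 19.7. In per0 LNvs that mean was 3.291 to 4.547, also above every wild-type array (3.286 at most). Of the 6 genes, 1 reached log2 4 on at least 2 cyc0 arrays, and 4 did so in per0. CycE stood at 6.53, 4.46 and 6.95 in cyc0 and at 3.97, 3.66 and 3.20 in wild type. CycB, Mcm5, PCNA and tum overlapped between cyc0 and wild type. The immature neuron list overlapped, at 4.58 to 5.76 and 4.09 to 4.93, although its member chinmo did not, at 6.43, 5.87 and 4.67 against 4.12, 3.36 and 3.02. The glia list overlapped too, at 3.49 to 4.58 and 4.11 to 4.41. Its member Gs2 was lower on every cyc0 array, at 4.44, 4.84 and 4.44 against 5.51, 8.01 and 7.18. The part of these cells in the elav difference was not tested.

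The test for elav in cyc0 against wild type changed sides easily. It passed in 7 of 25 alternative analyses, among them the stricter filter (adjusted p = 0.0484), quantile normalization (0.0198) and the replicate block (0.0494). Its adjusted p ranged from 0.0145 to 0.163 over those 25, and the difference from 1.90 to 2.58. Between the times elav passed in none of 25 alternatives (adjusted p 0.0681 to 0.403).

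**Figure D4:**
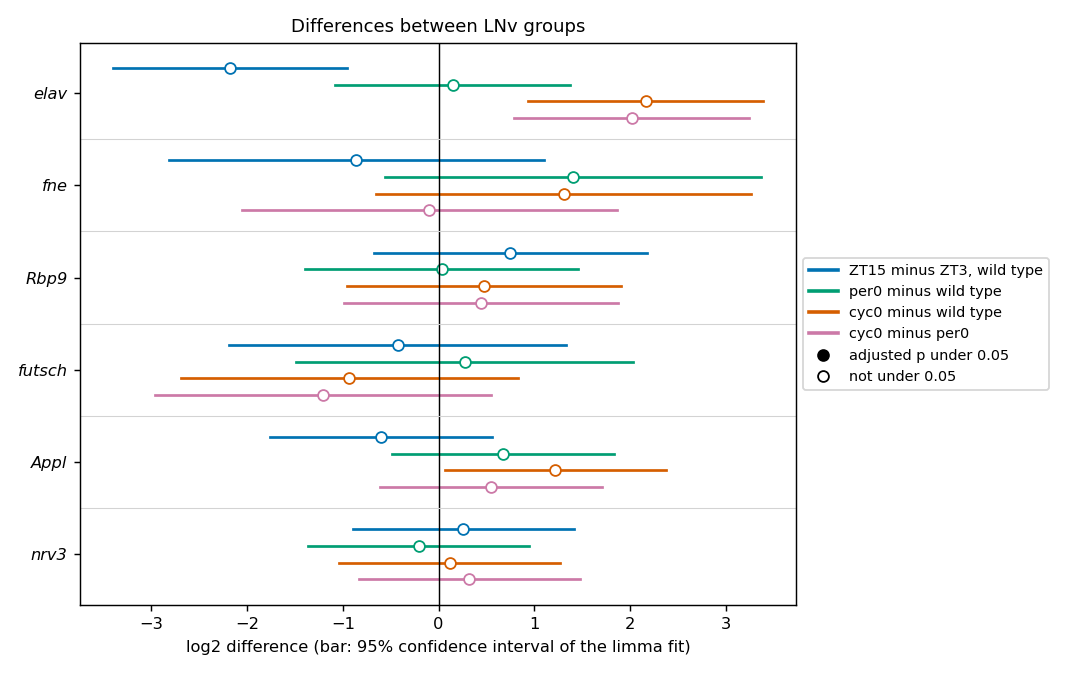
The log2 differences between LNv groups (x axis) for the 6 genes (y axis), from the limma fit. Points are estimates, bars are 95% confidence intervals, and open points did not pass an adjusted p of 0.05. No point is filled, and the elav intervals for ZT15 minus ZT3, cyc0 minus wild type and cyc0 minus per0, and the Appl interval for cyc0 minus wild type, leave out 0.

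The other 5 genes did not pass between mutants and wild type, where 1.18% of probe sets passed for per0 and 2.9% for cyc0, or between cyc0 and per0, where 0.789% passed. For fne the differences from wild type were 1.40 in per0 (95% confidence interval -0.56 to 3.36, adjusted p = 0.476), without overlap of arrays, which 23.4% of probe sets showed, and 1.31 in cyc0 (-0.65 to 3.27, adjusted p = 0.467). The cyc0 value for fne rested on replicate 3. Without that array it was 2.82 (adjusted p = 0.0368) and passed, and without replicate 2 it was 0.37 (adjusted p = 0.873). Appl differed by 1.22 in cyc0 (95% confidence interval 0.06 to 2.38, adjusted p = 0.231). The futsch difference in cyc0 was -0.93 (95% confidence interval -2.69 to 0.83, adjusted p = 0.577), and 0.06 without cyc0 replicate 3. For nrv3 the 3 differences lay between -0.21 and 0.32, and their intervals stayed within -1.36 and 1.48.

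Arrays of 1 group moved several members together. On the cyc0 arrays 5 members (elav, fne, futsch, Appl and nrv3) were highest on replicate 2 and lowest on replicate 3, while Rbp9 was highest on replicate 3 and lowest on replicate 1. Replicates 2 and 3 had 5110 and 4043 probe sets at log2 4 or more. Over deviations from the group means on the 15 arrays, futsch correlated with fne at r = 0.80 and with Appl at r = 0.63, and fne with Appl at r = 0.67. Between elav and its paralogs these values were r = 0.40 for fne and r = 0.51 for Rbp9. They describe 15 arrays that share amplification and normalization, and the part of array quality was not tested.

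The genes whose pattern over 15 arrays was most like that of each member were taken from 4718 genes tested. For elav they were Mkk4, a kinase that activates JNK (r = 0.94), CG3548 (r = 0.86) and Sirup (r = 0.86). Mkk4 averaged 8.56 and 6.90 in wild-type LNvs at ZT3 and ZT15, 6.74 in per0, 8.21 in cyc0 and 8.99 in elav neurons, high in the same 3 groups as elav. For futsch the closest were CG8245 (r = 0.97), MFS3 (r = 0.96) and bma (r = 0.95), all lower in elav neurons. For nrv3 the closest was cac, a calcium channel gene (r = 0.91), followed by Gbs-76A (r = 0.89) and Vha13, a proton pump subunit gene (r = 0.89). The highest values for fne, Appl and Rbp9 were r = 0.84, r = 0.84 (Bub1) and r = 0.82 (Roc2). The group means of Bub1 ran from 3.31 to 4.24, near background, which limits its likeness to Appl. No member was among the 3 closest genes of another.

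Other genes of the same roles give the setting. Of 16 tested genes of neuronal RNA-binding proteins, elav, fne and Rbp9 included, 1 was higher and 4 lower in wild-type LNvs at ZT15 than in elav neurons, with a median of -0.89 beside 0.07 over all genes (12.4% of genes passed). The lower ones were elav, heph (-4.66, adjusted p = 0.00183), a polypyrimidine tract-binding protein gene, Syp (-3.32, adjusted p = 0.0017), an hnRNP relative, and nonA (-2.07, adjusted p = 0.0489, lost with 9 of 15 arrays left out in turn). The higher one was ps (3.90, adjusted p = 0.00342), a relative of mammalian Nova. Other probe sets of Syp, nonA and ps did not pass, at -1.11, at 0.19 and -0.22, and at -0.48. The medians for the same list were -0.39 in per0, -0.27 in wild type at ZT3 and 0.01 in cyc0, beside 0.33, 0.12 and 0.28 over all genes. Imp, another RNA-binding protein gene, was lower in per0 than in elav neurons (-3.03, adjusted p = 0.00307) and higher in cyc0 than in per0 (3.28, adjusted p = 0.00813), although its other probe sets did not pass.

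Transcripts known to be processed by ELAV were measured by level, which does not show their splicing or 3′ ends. Of 9 tested, none was higher and 2 were lower in wild-type LNvs at ZT15 than in elav neurons, elav itself and nej (-2.56, adjusted p = 0.00191, against -0.48 for another probe set). Over all genes 12.4% passed there, and the medians were -0.60 for the list and 0.07 for all genes. Nrg, a neural adhesion gene whose neuronal isoform depends on ELAV, did not pass there (-0.0015, SE 0.58, adjusted p = 0.999). Its other probe sets gave 0.98 and 0.86 and did not pass either. Against wild type at ZT15, 1 of the 9 was higher and 1 lower in per0 LNvs, and 1 was higher in cyc0 LNvs. Over all genes 1.27% and 2.97% passed there. The higher one was nej, at 2.64 in per0 (adjusted p = 0.00977) and 2.67 in cyc0 (adjusted p = 0.00406). Another nej probe set gave -0.63 and -0.44, and both calls were lost with the 2 groups alone. In per0 LNvs Nrg was 2.52 lower on the log2 scale than in wild type (difference -2.52, adjusted p = 0.0415), whereas its other probe sets gave -0.63 and -0.11. That Nrg call was lost with 9 of 15 arrays left out in turn, and among others after centring and quantile normalization.

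Among 16 tested genes of the neuronal cytoskeleton and axonal transport, futsch included, 2 were higher and none lower in wild-type LNvs at ZT15, where 12.4% of all genes passed (median 0.38 beside 0.07 over all genes). The other one was milt, an adaptor of kinesin on mitochondria (3.58, adjusted p = 0.0272), with another probe set at -0.18. The milt call held with 11 of 15 arrays left out in turn and was lost with no filter. In per0 LNvs 4 were higher and 2 lower, where 10.3% of all genes passed. Among the higher were tau, another microtubule-associated protein gene, at 3.90 (adjusted p = 0.0135), and the synaptic kinesin gene unc-104 at 2.55 (adjusted p = 0.0036). The tau call held with 13 of 15 arrays left out in turn and was lost with no filter. The lower ones were Nrg (-2.52, adjusted p = 0.00983), with other probe sets at 0.35 and 0.75, and Map205 (-2.03, adjusted p = 0.0244). Wild-type LNvs at ZT3 had 3 higher, where 11.3% of all genes passed. The cyc0 LNvs had 2 higher, where 5.77% passed, among them unc-104 (2.56, adjusted p = 0.00503). Tubulin-binding shot, a spectraplakin gene, differed by -0.09 in wild-type LNvs at ZT15 (adjusted p = 0.967).

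Of the sodium pump genes on the array 3 were tested. Besides nrv3 these were nrv1, at 0.94 in wild-type LNvs at ZT15 (adjusted p = 0.347), and nrv2, which is known as a glial beta subunit and differed by -2.21 (adjusted p = 0.0222). The nrv2 call at ZT15 held with 12 of 15 arrays left out in turn. It was lost with no filter and with both groups alone. Among 9 tested genes of Appl and its processing, none was higher there and 1 was lower, the metalloprotease gene kuz (-2.18, adjusted p = 0.0494). As 12.4% of all genes passed there, 1 of 9 is near the background. The kuz call was lost with 12 of 15 arrays left out in turn. The presenilin gene Psn differed by 0.87 (adjusted p = 0.492) and X11L, an adaptor of Appl, by -0.64 (adjusted p = 0.553). In per0 LNvs X11L was lower, with a difference of -2.53 (adjusted p = 0.0136).

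Of 11 tested genes from a list of other pan-neuronal and synaptic genes, 3 were higher and none lower in wild-type LNvs at ZT15 than in elav neurons, where 12.4% of all genes passed, with a median of 1.53 beside 0.07 over all genes. These were cac (4.27, adjusted p = 0.00436), Rab3, a synaptic vesicle GTPase gene (1.94, adjusted p = 0.0382, lost with 5 of 15 arrays left out in turn and under quantile normalization, among others), and nSyb, the neuronal synaptobrevin gene (2.22, adjusted p = 0.0478, lost with 10 of 15 arrays left out in turn). The medians were 1.73 in wild type at ZT3, 1.60 in per0 and 1.03 in cyc0, beside 0.12, 0.33 and 0.28 over all genes. The calcium channel gene cac was 4.69, 4.60 and 4.55 above elav neurons in these groups (adjusted p = 0.00282, 0.00316 and 0.00499). Rab3 was 2.53, 2.78 and 3.14 above (adjusted p = 0.0103, 0.00582 and 0.00385). On the elav neuron arrays cac stood at 2.997, 3.145 and 7.106. As all but replicate 3 lay below log2 4, near background, the sizes of the cac differences are imprecise. The cac call in cyc0 was lost with no filter and with both groups alone (adjusted p up to 0.0754). Syn, the synapsin gene, and unc-13, a vesicle priming gene, passed in none of the 4, and the unc-13 differences ran from -0.30 to 0.38. CadN, a neuronal cadherin gene, was lower in wild-type LNvs at ZT3 than in elav neurons (-2.32, adjusted p = 0.0492, lost with 10 of 15 arrays left out in turn) and higher at ZT15 than at ZT3 (3.59, adjusted p = 0.0268). The latter call was lost with 5 of 15 arrays left out in turn, with no filter, with both groups alone and without the 2 arrays least like their groups (adjusted p up to 0.151).

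**Figure D5:**
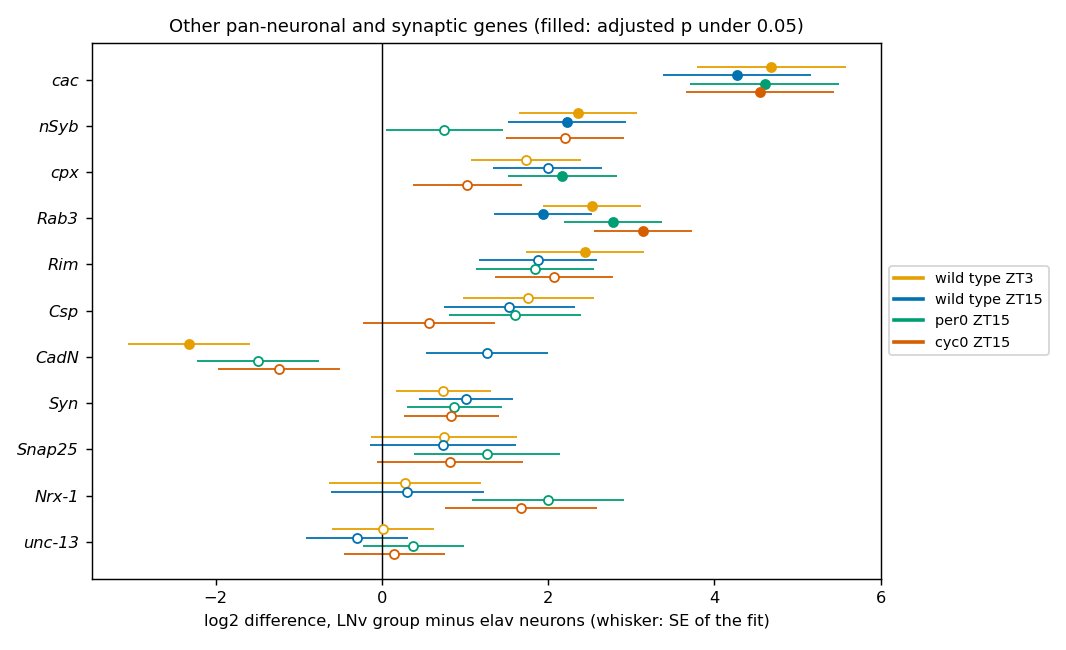
The log2 difference of each LNv group from elav neurons (x axis) for 11 other pan-neuronal and synaptic genes (y axis). Points are limma estimates, whiskers are SE, and filled points passed an adjusted p of 0.05. The cac points lie between 4.27 and 4.69, and those of unc-13 between -0.30 and 0.38.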

How the data were processed

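Brains were dissociated for 2 h, cells sorted and RNA amplified (NuGen WT-Ovation), per the labels' protocols. Per the submitters' processing notes, GCRMA gave the deposited log2 values. The sources used here name no GCRMA version, grouping of arrays or later filter. Of 18869 probe sets 100 controls were left out, and 13646 of the others had 1 gene symbol, 402 several and 4721 none in the platform annotation. A gene's brightest probe set over 15 arrays stood for it. Groups came from the sample titles.

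A mean per group was fitted to all 15 arrays with limma 3.58.1 (R 4.3.3; lmFit and eBayes, prior degrees of freedom 7.46), and 8 comparisons were read from that fit, two-sided, with Benjamini-Hochberg adjustment in each. The median SE of a log2 difference was 0.66, and the number of arrays limits the precision. Alternatives changed the filter, scaling, prior, array weights (gene-by-gene method), arrays, probe sets per gene and replicate block.

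The members, lists and rules were chosen with earlier results of these data known. Named list genes are among the 4 smallest p of their list in a comparison, and a few were named after their values were seen (shot, Syn, unc-13, Psn, and, against elav neurons, nonA, X11L and Nrg at ZT15, CadN at ZT3 and Map205 in per0). Likeness is Pearson's r over 15 arrays, by rule the 3 highest. No sequences are printed.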

Additional observations from a re-analysis of the deposited data

How the results depend on the processing

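The elav calls (wild-type ZT15 and per0 against elav neurons) and the futsch calls other than cyc0 held in all 25 alternatives. In the others the side of the threshold changed for nrv3 in all 4 comparisons with elav neurons, for futsch in cyc0 against elav neurons, for elav in cyc0 against wild type and against per0 (array weights, adjusted p = 0.0185), for Appl in cyc0 against wild type (array weights, 1.47, adjusted p = 0.0495) and for fne there. The alternative without the 2 arrays least like their groups was chosen after seeing the data. Signal over background limits Rbp9 and the dim probe sets.

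Probe sets called, in the order wild-type ZT15, wild-type ZT3, per0 and cyc0 against elav neurons, then between the times, for each mutant (per0, cyc0) against its wild type, and between the mutants, were 729, 653, 597, 327, 46, 69, 169 and 46. Without a filter the first 3 were 454, 379 and 347, and per0 against wild type and cyc0 against per0 were 40 and 24. Array weights gave 1109 and 740 for per0 and cyc0 against elav neurons and 351, 812 and 484 for the last 3. Quantile normalization gave 498 for cyc0 against elav neurons. Using the arrays of both groups alone gave 169 for that comparison and 6, 6, 35 and 21 for the last 4. Without the 2 arrays, per0 against wild type had 200. Leaving out single arrays gave 491 to 805, 314 to 760, 246 to 683, 166 to 455, 20 to 47, 25 to 142, 62 to 258 and 20 to 67. The lowest of these counts came without elav replicate 1, wild-type ZT3 replicate 2, per0 replicate 1, cyc0 replicate 1, wild-type ZT3 replicate 2, per0 replicate 3, cyc0 replicate 1 and cyc0 replicate 1.

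The share of higher calls moved from 63.1% to 50.9% for wild-type ZT3 and from 67.5% to 54.4% for per0 against elav neurons under quantile normalization. The median of all probe sets tested moved there from 0.16 to 0.01 and from 0.32 to 0.10.

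Signs changed among differences that did not pass. For Appl at ZT15 against elav neurons, quantile normalization gave -0.43, array weights -0.11 and leaving out both arrays -0.31, with -0.31 to 0.41 over single arrays left out. Quantile normalization turned Rbp9 to -0.043 in per0 and to -0.036 in wild type at ZT15 against elav neurons and to -0.0071 in per0 against wild type, and fne to -0.12 in wild type at ZT3 against elav neurons. Over single arrays left out these ran from -0.23 to 1.20, -0.081 to 0.53, -0.53 to 0.90 and -0.067 to 0.69. For cyc0 against per0, array weights gave -0.36 for Rbp9 and 0.27 for fne, and fne was 1.41 without both arrays, with ranges of -0.43 to 1.01 and -1.03 to 1.41. Without both arrays elav in per0 against wild type was -0.11 (range -0.18 to 0.56) and futsch in cyc0 against wild type 0.063 (range -2.01 to 0.060). Ranges also crossed 0 for fne in cyc0 against elav neurons (-0.22 to 2.22), futsch in per0 against wild type (-0.11 to 0.71) and nrv3 in cyc0 against wild type (-0.11 to 0.245). The cause of these changes was not tested.

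Replicate numbers were not treated as pairs in the main fit. Same-numbered arrays of different groups had a median correlation of deviations of 0.02 (-0.19 to 0.20, 5 of 30 pairs over 0.1). For arrays with different numbers the median was -0.01 (-0.28 to 0.25, 5 of 60 pairs over 0.1). These values do not settle whether the numbers pair the samples. With the replicate number as a block, 713 probe sets passed between wild-type LNvs at ZT15 and elav neurons, nrv3 had adjusted p = 0.0543 there, and per0 against wild type had 46.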
